A study of Mus musculus with 2 samples.

Results

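Mir144, Mir451a and Mir486 are microRNA (miRNA) genes known for their expression in maturing red blood cells. They were taken by gene symbol from the deposited count tables, which list 2202 miRNA genes, and all 3 members were found. Small RNA from the adrenal gland of female B6CASTF1/J mice, a first-generation cross of C57BL/6J and CAST/EiJ, was sequenced. The mice were 18 to 20 months old, untreated as far as the labels say, and the labelled size range was under 30. There was 1 group of 2 biological replicates from distinct tissue samples under the same donor record, so every difference below is between replicates of 1 condition and may be partly technical. Whether the glands were cleared of blood is not given in the sources used here. The tables count miRNA genes only, so neither the tissue label nor the presence of red cells was checked against protein-coding markers such as steroidogenic enzymes or globins.

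A miRNA is cut from a hairpin precursor and guides an Argonaute protein to messenger RNAs, mainly through its seed, the bases from position 2 to 8. Mir144 and Mir451a form a single locus that the erythroid transcription factor GATA1 activates, and miR-451 is among the dominant miRNAs of mature red cells. Mir451a is unusual because its hairpin is too short for Dicer and is cut by Ago2, an Argonaute protein. Mir486 lies within Ank1, which encodes the red cell membrane skeleton protein ankyrin-1, and is also known from skeletal muscle and heart.

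The mature sequences annotated at the chromosome 11 locus are given below. Counts are per hairpin gene, so the arm or mature sequence that the counted reads came from is not known. RefSeq entries on GRCm38.p6 matched 2 of the 3 members, Mir144 and Mir451a. The seed is in capitals.
mmu-miR-144-5p: gGAUAUCAucauauacuguaagu
mmu-miR-144-3p: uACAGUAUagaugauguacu
mmu-miR-451a: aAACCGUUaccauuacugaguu
mmu-miR-101a-3p: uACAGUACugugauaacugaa
No other mature miRNA among the 1738 in the RefSeq table had the seed of miR-144-5p, miR-144-3p or miR-451a. The sequence of miR-101a-3p is shown because it was the only one to match miR-144-3p from base 2 to base 7, and it differs at base 8. Each of the 3 member sequences occurred in 1 of the 1005 RefSeq hairpins, its own.

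The hairpins show the different position of the mature RNA in the pair. Capitals mark the mature miRNAs.
Mir144 hairpin: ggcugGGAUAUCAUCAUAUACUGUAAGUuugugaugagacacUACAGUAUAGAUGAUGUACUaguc
Mir451a hairpin: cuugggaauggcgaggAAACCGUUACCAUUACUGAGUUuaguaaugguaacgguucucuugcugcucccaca
In the fold predicted by RNAfold, the terminal loop of Mir144 held bases 31 to 36. The 5p miRNA (bases 6 to 28) and the 3p miRNA (bases 43 to 62) lay on either side of it. In Mir451a the mature RNA ran from base 17 to base 38 and covered the whole terminal loop, bases 35 to 38. It had 17 paired bases on the 5′ arm and 0 on the 3′ arm.

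On mm10 with GENCODE M21, Mir144 (ENSMUSG00000065401.1) is at chr11:78073005-78073070 and Mir451a (ENSMUSG00000070065.1) at chr11:78073170-78073241, both on the + strand. The pair is separated by 99 bases and overlaps no protein-coding gene. Mir451b (ENSMUSG00000104813.1) occupies the same 72 bases as Mir451a on the - strand, and its RefSeq hairpin is the reverse complement of the one printed above. The longest run that miR-451a shares with the Mir451b hairpin was 16 of its 22 bases. Mir486 (ENSMUSG00000070084.3) is at chr8:23142555-23142682 on the + strand, in an intron of Ank1. Mir3107 (ENSMUSG00000106471.1), also named Mir486b, lies inside it on the - strand and shares 90 of its 128 bases. The antisense gene Gm15816 also spans Mir486, with no exon over it.

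**Figure D1:**
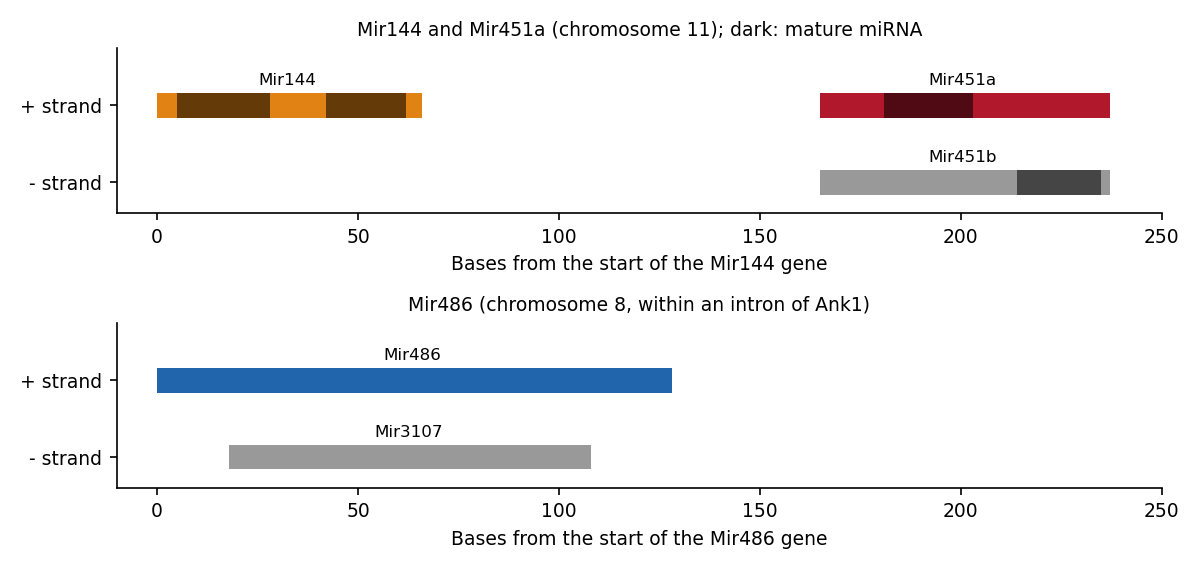
Map of the hairpin genes at both loci, drawn to scale, with bases from the start of Mir144 (top) or Mir486 (bottom) on the x axis and the strand on the y axis. Dark blocks mark the mature miRNAs of the RefSeq table. Mir451b covers the same bases as Mir451a on the other strand, and Mir3107 lies inside Mir486.

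By counted reads, Mir451a was the most abundant of the 3 genes in each library. Mir144 and Mir486 were lower and close to each other. Reads with several alignments are left out, so Mir486 would be undercounted if its mature sequence were shared with Mir3107. That sharing was not analysed. Levels are CPM, counts per 1000000 of the reads counted on the own strand of a miRNA gene, 2590051 in replicate 1 and 2291030 in replicate 2. A small RNA read spans its miRNA, so CPM were not scaled by length. Mir451a had 1916 counts in replicate 1, or 740 CPM (Wilson 95% interval 707 to 774). In replicate 2 it had 799 counts, or 349 CPM (325 to 374). The level was higher in replicate 1, and the intervals, which cover counting error only, do not overlap. The mean was 544 ± 276 CPM (SD, n = 2).

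Mir144, the partner of Mir451a, had 237 counts and 91.5 CPM (80.6 to 104) in replicate 1. Replicate 2 gave 137 counts and 59.8 CPM (50.6 to 70.7). It too was higher in replicate 1, with a mean of 75.7 ± 22.4 CPM (SD, n = 2). Mir486 had 183 counts in replicate 1 and 187 in replicate 2, which is 70.7 CPM (61.1 to 81.7) and 81.6 CPM (70.7 to 94.2). Its intervals overlap, and the mean was 76.1 ± 7.76 CPM (SD, n = 2).

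Among all miRNA genes, Mir451a ranked 94 by level in replicate 1 and 122 in replicate 2. Mir144 ranked 190 and 203, and Mir486 ranked 205 and 190, so those 2 changed places. All 3 members passed the detection limit of 10 counts in each library, as did 339 of the 2202 genes. The median level of these detected genes was 134 CPM, above Mir144 and Mir486 and below Mir451a. Together the 3 members held 0.0902% of counts in replicate 1 and 0.0490% in replicate 2, a mean of 696 ± 291 CPM (SD, n = 2).

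**Figure D2:**
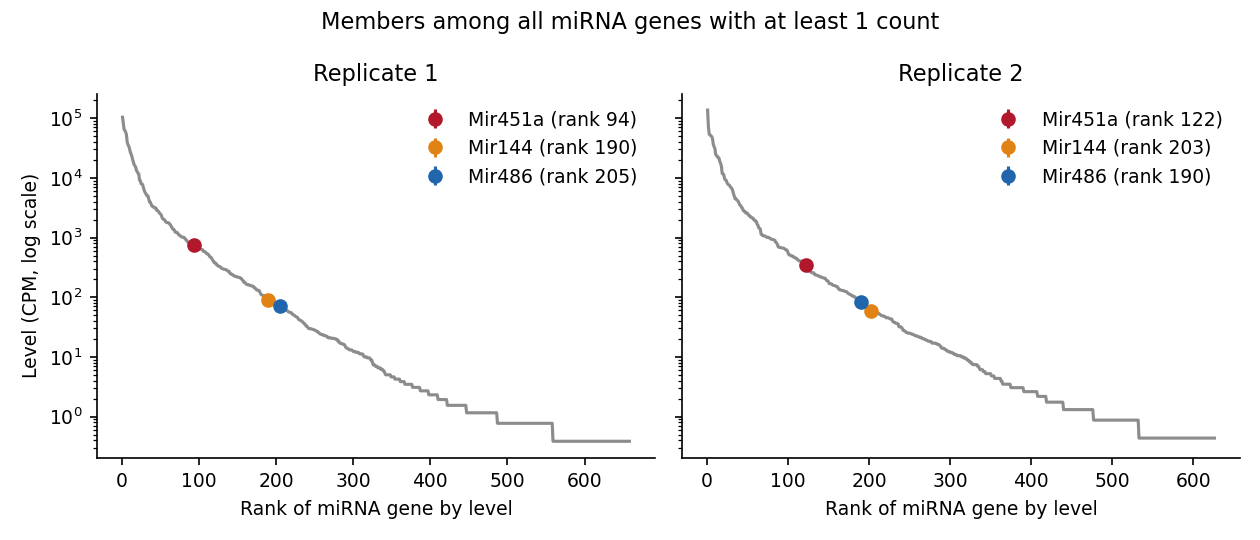
Level in CPM (y axis, log scale) against the rank of each miRNA gene with at least 1 count (x axis), in replicate 1 (left) and replicate 2 (right). Coloured points are the members, with Wilson 95% intervals that are mostly smaller than the points. Mir451a lies at 740 and 349 CPM, while Mir144 and Mir486 lie next to each other at 59.8 to 91.5 CPM.

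The strand setting decided whether Mir451a and Mir486 were counted at all. With strand ignored, each had 0 counts in both libraries, where the tables place reads over overlapping genes in an ambiguous class. Mir144, which no other gene overlaps, kept its 237 and 137 counts. The own-strand reads of Mir451a equal 0.479% of the ambiguous reads in replicate 1 and 0.317% in replicate 2.

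No opposite-strand reads were counted at Mir144 and Mir451a. Mir451a had 0 opposite-strand counts in either library, and Mir451b therefore 0 counts of its own. Up to 3 counts are compatible with a count of 0, or 0.157% of the Mir451a count in replicate 1 and 0.375% in replicate 2. For Mir144, also at 0, the limits are 1.27% and 2.19%. At Mir486, 13 opposite-strand counts were found in each library, and by position these are the own-strand counts of Mir3107. Of the reads on either strand there, 93.4% (Wilson 95% interval 89.0 to 96.1) in replicate 1 and 93.5% (89.2 to 96.2) in replicate 2 belonged to Mir486. Whether Mir486 and Mir3107 share a mature sequence was not analysed here. Reads that align to several places, 24.0% and 28.0% of all reads, are not in any gene count, and how many of them came from the members was not tested.

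**Figure D3:**
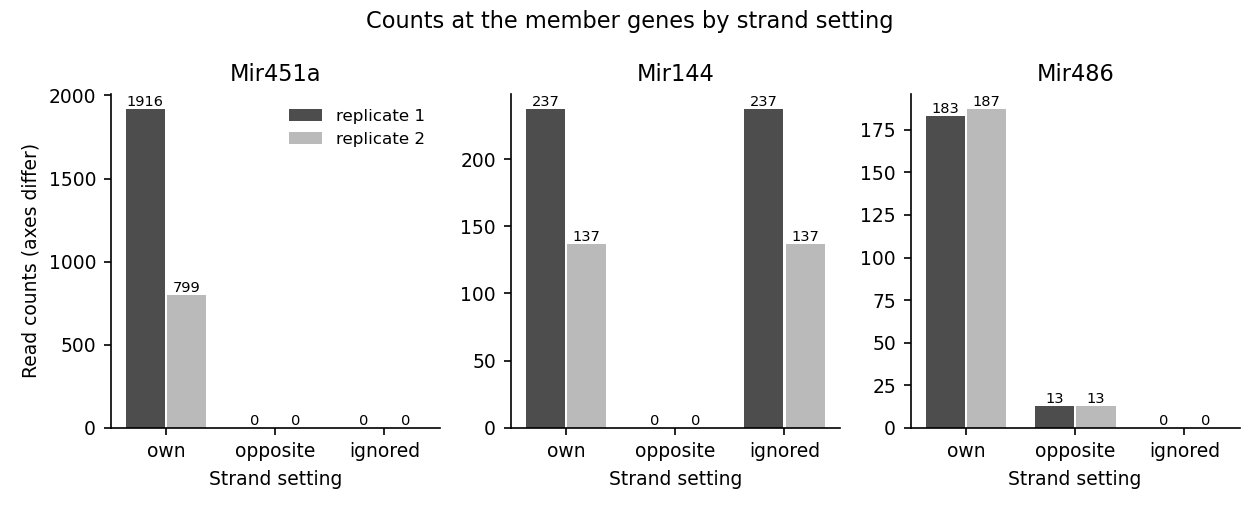
Read counts (y axes, which differ between panels and start at 0) of Mir451a, Mir144 and Mir486 for own strand, opposite strand and strand ignored, in replicate 1 (dark) and replicate 2 (light). Ignoring strand leaves Mir144 at 237 and 137 counts and sets Mir451a and Mir486 to 0.

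Between the libraries, Mir451a and Mir144 were higher in replicate 1 and Mir486 did not pass the test. Counts were tested two-sided by the exact conditional binomial method with edgeR's TMM scaling, Benjamini-Hochberg adjusted over 367 genes. It compares these 2 libraries with counting error only and tests no condition. Mir451a was 2.07-fold higher in replicate 1, with a log2 ratio of replicate 2 over replicate 1 of -1.05 (exact 95% interval -1.17 to -0.93, adjusted p = 3.75e-71). Mir144 was 1.49-fold higher in replicate 1, with a log2 ratio of -0.57 (-0.89 to -0.27, adjusted p = 0.000381, exact test). Mir486 had a log2 ratio of 0.24 (-0.06 to 0.55, adjusted p = 0.155, exact test).

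Calls for 2 of 3 members stand against a background in which 62.7% of all tested genes differed. The share of members called is therefore not particular to them. Among genes with a summed count of at least 200, which include all 3 members, 180 of 229 differed. By direction, 32.4% of tested genes were higher in replicate 1 and 30.2% in replicate 2, or 119 and 111 genes. With TMM factors taken from all genes, a setting chosen after seeing the data, the split was 139 and 85 and the median log2 ratio of all genes moved from 0.01 to -0.12. The members' calls and directions were the same under it. An absolute log2 ratio larger than that of Mir451a was found in 65 of the 367 genes, larger than that of Mir144 in 154 and larger than that of Mir486 in 260. The spread between the libraries over all genes, as edgeR's common biological coefficient of variation, was 0.432.

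**Figure D4:**
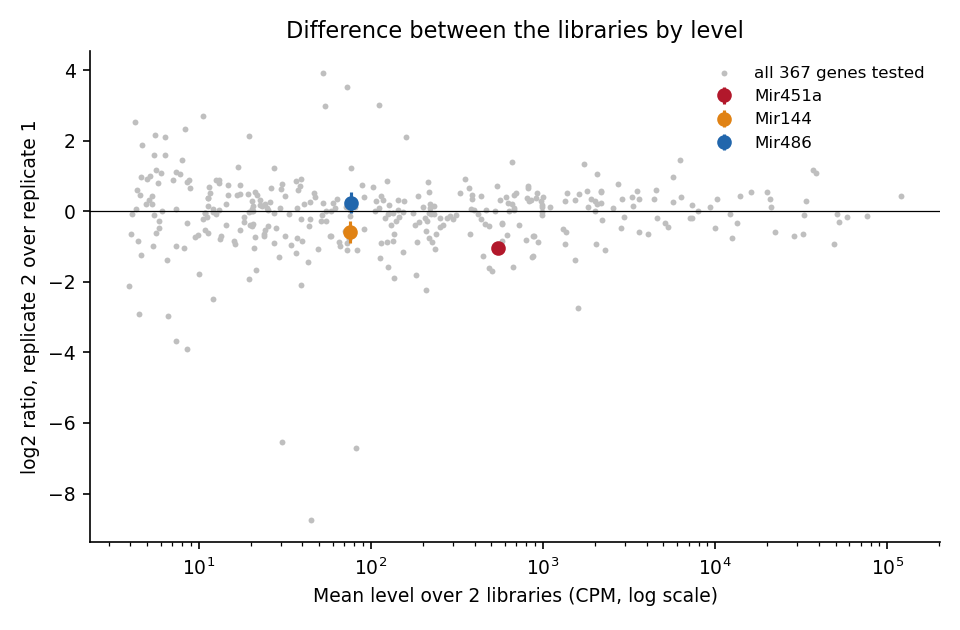
Log2 ratio of replicate 2 over replicate 1 (y axis) against mean level in CPM (x axis, log scale) for the 367 tested genes (grey) and the members (coloured, with exact 95% intervals). Mir451a at -1.05 and Mir144 at -0.57 lie below 0, and the interval of Mir486 at 0.24 includes 0.

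Ratios of the members within a library need no scaling between libraries, and all 3 ratios differed by more than counting error. The count of Mir451a was 8.08 times that of Mir144 in replicate 1 (exact 95% interval 7.06 to 9.29) and 5.83 times in replicate 2 (4.86 to 7.04). The odds ratio of replicate 2 over replicate 1 was 0.721 (0.573 to 0.912), so the pair from 1 locus did not move by equal amounts. Mir486 was 0.0955 of Mir451a in replicate 1 (0.0816 to 0.111) and 0.234 in replicate 2 (0.199 to 0.275), an odds ratio of 2.45 (1.95 to 3.07). Mir486 was 0.772 of Mir144 in replicate 1 (0.633 to 0.940) and 1.36 times it in replicate 2 (1.09 to 1.71), an odds ratio of 1.77 (1.30 to 2.40). The order of the counts of Mir144 and Mir486 was therefore opposite in the libraries. Of the summed member counts, Mir451a made up 82.0% in replicate 1 and 71.1% in replicate 2, and Mir486 7.83% and 16.7%. These are shares of counted reads. The share of Mir486 would be too low if its mature sequence were shared with Mir3107, which was not analysed.

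Unequal members are common among neighbouring miRNA genes of these libraries. Over 108 pairs of adjacent detected genes on the same strand within 10 kb, the median ratio of the higher to the lower mean level was 4.96. For Mir451a and Mir144 it was 7.19, and 43 pairs had a larger one. The log2 ratios of the pair differed by 0.47, where the median over pairs was 0.51 and 58 pairs differed by more.

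The genes closest to each member were picked by the smallest difference in log2 ratio among tested genes with a mean level within 2-fold. With 2 libraries, this likeness rests on a single ratio per gene. For Mir451a these were Mir298 (log2 ratio -0.88) and Mir16-1 (-0.85), of 58 candidates. For Mir144 they were Mir136 (-0.57) and Mir186 (-0.53), of 72. Mir18 (0.24) and Mir3072 (0.24) were closest to Mir486, also of 72. For Mir101a, whose miR-101a-3p is nearest in seed to miR-144-3p, 452 and 219 counts gave a log2 ratio of -0.83 (-1.07 to -0.60).

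Other miRNAs known to be abundant in red cells included genes higher in either library. Of 16 listed genes 14 were found by symbol and tested, and Mir92a-1 and Mir92a-2 were not found by the symbols used. Of the 14, 6 were higher in replicate 1, 4 were higher in replicate 2 and 4 did not pass. Over all tested genes 32.4% were higher in replicate 1 and 30.2% in replicate 2, so calls in either direction are not particular to this list. Their median log2 ratio was -0.11, against 0.01 over all genes tested. With a summed count of at least 200 it was -0.75 over the 11 members left. The most abundant was Mir22, a miRNA expressed in many tissues, at 15931 CPM in replicate 1 and 9251 in replicate 2 (log2 ratio -0.75). Mir191 had 7968 and 7856 CPM (log2 ratio 0.02). For Mir16-1, whose mature miRNA is also encoded by Mir16-2, the levels were 747 and 403 CPM. At 3 of the 14 genes the ratio lay below that of Mir451a, against 37 of all 367 tested genes (10.1%). Those 3 of the list were Mir15a (-1.25), Mir106b (-1.27) and Mir25 (-1.17), named after their values were seen. In 4 of the 14, a mature sequence is shared with another gene, which can lower their counts because reads with several alignments are left out.

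Leukocyte and platelet miRNAs were led by genes that did not pass the test. Summed over 10 measured genes they reached 3301 CPM in replicate 1 and 3425 CPM in replicate 2, with Mir142b, named for that value, at 0 in both. Of 8 tested, 1 was higher in replicate 1 and 2 were higher in replicate 2, and the median log2 ratio was 0.03. The share called over all tested genes was 62.7%. With DESeq2 size factors the counts were 2 and 1, and with TMM factors from all genes they were 4 and 1. Mir146, an inflammation-responsive miRNA, had 1012 and 971 CPM, and Mir342 had 644 and 632 CPM. Neither passed (adjusted p of 0.678 and 0.898, exact test). The 3 called genes, named after their values were seen, were Mir155 (log2 ratio -0.22), Mir181b-2 (0.91) and the myeloid Mir223 (0.31). A mature sequence of Mir181b-2 is shared with another gene, which can lower its counts because reads with several alignments are left out. For each 1000 counts of this list there were 224 of Mir451a in replicate 1 and 102 in replicate 2, an odds ratio of 0.455 (exact 95% interval 0.416 to 0.497). For Mir144 the odds ratio was 0.630 (0.506 to 0.783), and for Mir486 it was 1.11 (0.901 to 1.38).

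Endothelial miRNAs, which mark vessel walls, were higher in replicate 1, as Mir451a was. Mir126a had 64752 CPM in replicate 1 and 33413 CPM in replicate 2, a log2 ratio of -0.92. Both listed genes, Mir126a and Mir126b, were higher in replicate 1 (Mir126b 31 and 3 counts), against 32.4% of all tested genes. Mir126b was below the detection limit in replicate 2 and met the summed-count filter only through replicate 1. Its direction is therefore no separate result beside that of Mir126a. Mir126a held 167712 of the 167743 counts of the list in replicate 1, so the list is in effect Mir126a. For each 1000 counts of this list there were 11.4 of Mir451a in replicate 1 and 10.4 in replicate 2, an odds ratio of 0.914 (0.840 to 0.993). For Mir486 these values were 1.09 and 2.44 (odds ratio 2.24, 1.82 to 2.76). Mir144 had 1.41 and 1.79 (odds ratio 1.27, 1.02 to 1.57), on the other side of 1 from Mir451a. The part of vessel content in the difference of Mir451a was not tested. In whole tissue, fewer cells of a type and less RNA per cell cannot be told apart.

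Striated muscle miRNAs are listed because muscle also expresses Mir486. Their sum was 601 CPM in replicate 1 and 82.1 CPM in replicate 2. Of the tested genes 4 of 4 were higher in replicate 1, against 32.4% of all tested genes. Only 1 gene of the list passed the detection limit in each library. Mir499, Mir208a and Mir208b had 3, 0 and 1 counts in replicate 2 and met the summed-count filter only through replicate 1. For those genes the direction followed from how they entered, so the 4 of 4 is no separate result. Mir208a and Mir208b were named after their values were seen. Mir206, known from skeletal muscle, had 737 and 182 counts, and the myosin gene miRNA Mir499 had 420 and 3. The whole list had 188 counts in replicate 2, so ratios to it rest mainly on Mir206 there. Among the 10 measured genes 4 were at 0 in both libraries, namely Mir1a-1, Mir133a-1, Mir133a-2 and Mir133b, named after their values were seen. Mir1a-1 and Mir1a-2 are known to encode the same mature miRNA, as are Mir133a-1 and Mir133a-2. Reads with several alignments are left out, so low counts at those duplicated genes do not measure muscle content. That is background, since the RefSeq table marked 0 genes of this list as sharing a mature sequence. It does not cover Mir133b. Mir486 had 183 and 187 counts. Against the muscle sum, which was lower in replicate 2, all 3 members had an odds ratio of replicate 2 over replicate 1 above 1. It was 8.45 (exact 95% interval 6.51 to 10.99) for Mir486, 4.78 (3.66 to 6.25) for Mir144 and 3.45 (2.90 to 4.13) for Mir451a. The part of muscle in the level of Mir486 was not tested. Mir122, a liver miRNA also found in plasma, had 1611 and 1608 counts. Its log2 ratio was 0.21 (exact 95% interval 0.11 to 0.31, adjusted p = 7.24e-05, exact test), where 62.7% of all tested genes were called. The call of Mir122 was not examined under other scaling. With TMM factors from all genes the median log2 ratio of all genes moved from 0.01 to -0.12.

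**Figure D5:**
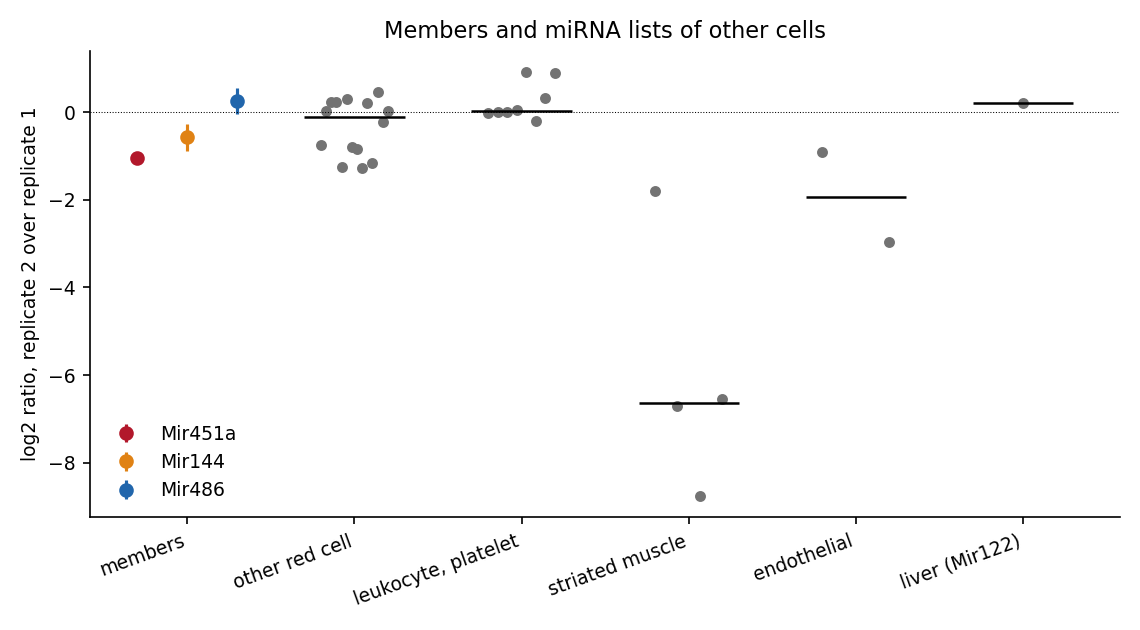
Log2 ratio of replicate 2 over replicate 1 (y axis) for the members (coloured, with exact 95% intervals) and for the tested genes of each list (grey points, with the median as a line). The 4 muscle genes lie lowest in median, with 0 counts in replicate 2 for the lowest point, Mir208a (named after its values were seen), whose plotted value depends on the prior count of 0.5. Leukocyte and platelet genes centre on 0.03.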

How the data were processed

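The deposited tables give, for each miRNA gene, the authors' raw read counts in columns for strand ignored, own strand and opposite strand. Build mm10 and annotation GENCODE M21 are named per the deposited notes. No aligner, counter or trimming step is given in the sources used here. The strand columns were recognised from their totals. All 2202 identifiers matched GENCODE M21. Rows of reads in no gene were left out: in replicates 1 and 2, 40.6% and 29.8% of reads were unmapped, 24.0% and 28.0% aligned to several places and 8.94% and 9.44% lay in no miRNA gene. C57BL/6J is the genome of mm10, so reads with CAST/EiJ alleles may be missing.

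CPM used own-strand totals. Libraries were compared by an exact conditional binomial test (scipy 1.17.1) with TMM factors 1.01 and 0.987 from edgeR 4.0.16, Benjamini-Hochberg adjustment over genes with a summed count of at least 20, and a prior count of 0.5 in log2 ratios. The test was tested on simulated data with counting error only, which cannot show how it behaves with added spread between libraries. DESeq2 1.42.0 gave alternative size factors. Folds came from RNAfold 2.7.2. Intervals and zero limits cover counting error only, since reads without molecular identifiers are not independent molecules.

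Named genes were the members, genes overlapping them, the 2 nearest in log2 ratio per member, the 2 most abundant per list and any miRNA sharing a seed (none did). Other genes were chosen after their values were seen. Members and lists were chosen with earlier results of these data known. Alternatives concerned scaling, filter, prior count, strand and library total.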

Additional observations from a re-analysis of the deposited data

Results flagged for a closer look

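At Mir486, the opposite-strand column held 13 counts in replicate 1 and 13 in replicate 2, above the 3 counts that a count of 0 allows. They lie outside the own-strand measurement and equal, by position, the own-strand counts of Mir3107.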

How the results depend on the processing

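The log2 ratio of Mir451a ranged from -1.18 to -1.03 over 7 alternatives and that of Mir144 from -0.71 to -0.56 over 8, and every one passed the exact test. Mir486 ranged from 0.11 to 0.26 over 7 and passed in 0 of them (adjusted p 0.113 to 0.554). With strand ignored Mir451a and Mir486 had 0 counts, so no ratio was obtained there. With own and opposite strands summed the ratios between members kept their intervals on the same side of 1. Per 1000000 of all reads in the tables, mean levels were 21.9 for Mir144, 155 for Mir451a and 22.7 for Mir486, and without the 10 most abundant genes in the total they were 167, 1197 and 169 CPM. Strand ignored gave Mir451a and Mir486 a level of 0. Leaving out a replicate gave 59.8 to 91.5 CPM for Mir144, 349 to 740 for Mir451a and 70.7 to 81.6 for Mir486, and with 1 library left no comparison could be made. No paired analysis was possible because there is a single group. The count of differing genes ran from 180 to 228 against 230, but the number tested changed as well. With a summed count of at least 200 it was 180 of 229 genes, and with no filter 228 of 724. Ignoring strand gave 211 of 337. The share called therefore depends on the filter. In the leukocyte and platelet list, DESeq2 size factors gave 2 members higher in replicate 1 and 1 higher in replicate 2, and TMM factors from all genes gave 4 and 1. The red cell list median was -0.24 with TMM factors from all genes and -0.75 with a summed count of at least 200, where fewer genes are tested. The cause of the changes with scaling was not tested. Depth limits Mir144 and Mir486 most, with at most 237 counts in a library.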

Other observations

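Mir101b, another gene of the miR-101 family and singled out after its values were seen, was higher in replicate 1. Its 2014 and 542 counts gave a log2 ratio of -1.68 (exact 95% interval -1.82 to -1.54). In each library it had more counts than Mir101a and Mir144. Of the genes that encode the same miR-16, an abundant red cell miRNA, Mir16-1 had 1934 and 923 counts and Mir16-2 had 539 and 533. The log2 ratios were -0.85 (-0.97 to -0.74) for Mir16-1 and 0.20 (0.02 to 0.37) for Mir16-2. Both genes share a mature sequence with another gene. Reads with several alignments are left out, so these counts do not measure the shared miR-16. Its change between the libraries was not tested. Mir16-2 was also singled out after its values were seen.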
